A study of Mus musculus with 6 samples.

Results

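Fat cells release protein hormones, called adipokines, and 7 genes for such proteins of the white adipose type were followed in mouse skin: Adipoq, Lep, Retn, Cfd, Rbp4, Rarres2 and Nampt. They were taken by gene symbol, and all 7 were found among the 21959 genes of the deposited table, each in its own row. All 7 also passed the filter on low counts that left 14875 genes for testing. RNA was sequenced from the dorsal skin, described in the paper as full thickness, of male C57BL/6 mice aged 7 weeks. Their back hair had been shaved while the follicles were resting (telogen). For 7 days, 3 mice received a daily topical dose of vehicle, a mix of 30% dipropylene glycol and 70% water, and 3 mice received 3% rebamipide, a drug for the stomach lining, in the same way. Each library was made from poly-A RNA of 1 mouse, and no separation of the tissue into layers is described. Differences are given as rebamipide against vehicle.

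Adipokines act on the liver, muscle, brain and immune cells, and fat under the skin is one of their sources. Adipoq encodes adiponectin, which circulates at high levels and improves the response to insulin, and both white and brown fat cells make it. Lep encodes leptin, the satiety hormone, whose level follows the fat content of white fat cells, and in mice Retn encodes resistin, made mainly by white fat. Cfd encodes adipsin (complement factor D), the protease that starts the amplification loop of the alternative complement pathway. Rbp4 encodes the retinol carrier of blood, and Rarres2 encodes chemerin, a chemoattractant for immune cells. Nampt makes nicotinamide mononucleotide, the rate-limiting step of NAD salvage in most cells, and a secreted form is known as visfatin, so it is the least restricted to fat of the 7.

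Vehicle libraries summed to between 38676018 and 39915276 counts and rebamipide libraries to between 32709801 and 34706852. A count of 0 allowed up to 3 counts, or 0.0752 to 0.0917 CPM (counts relative to the library total) before scaling, for counting error only. The 10 leading genes held 7.2% to 10.56% of a vehicle library and 20.23% to 30.36% of a rebamipide library, and transcripts of the mitochondrial genome held 2.59% to 5.36% and 13.28% to 21.96%. Counts were therefore scaled with TMM, which sets the bulk of the genes level between libraries. With TMM, 2093 genes were higher and 968 lower, and with total counts alone 1258 were higher and 3752 lower, with the median log2 difference of all genes moving from -0.17 to -0.78. In the third rebamipide library 4 of 7 keratinocyte markers were at 3 counts or fewer, with Krt14 (a keratin of the basal epidermis) at 0, so RNA of the epidermis was nearly absent from it. Over all genes, libraries of a group differed by chi-square values per degree of freedom of 83.1 between rebamipide mice 2 and 3, 362 and 521 between rebamipide mouse 1 and these, 196 between vehicle mice 2 and 3, and 338 and 742 between vehicle mouse 1 and those. Mouse 1 thus lay farthest from the other mice of its group in both groups.

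The 7 genes lie on 6 chromosomes. In the deposited table, which uses GRCm39, Adipoq (ENSMUSG00000022878) spans chr16:22965286-22976778 and Nampt (ENSMUSG00000020572) spans chr12:32869544-32903348, both on the plus strand. Lep (ENSMUSG00000059201) and Rarres2 (ENSMUSG00000009281) share chromosome 6, at chr6:29060219-29073876 on the plus strand and chr6:48546630-48549723 on the minus strand. Retn (ENSMUSG00000012705) spans chr8:3705770-3710110 and Cfd (ENSMUSG00000061780) chr10:79726687-79728489, both on the plus strand, and Rbp4 (ENSMUSG00000024990) spans chr19:38105077-38113729 on the minus strand. Rarres2 overlaps its plus-strand neighbour Lrrc61 by 1027 bases, and Lrrc61 held 4.6% to 15.5% as many counts as Rarres2 in a library. Whether reads were counted by strand is not given in the sources used here, so reads of the shared stretch may be divided wrongly. No other member overlapped a gene of the table.

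The promoters of Adipoq, the hormone gene that rose, and of Lep, Retn and Cfd, which did not pass the test, are shown because the comparison turns on them. They are the 250 bases before the annotated start from RefSeq on GRCm38.p6, a different build from the positions above, and 6 of the 7 genes, all but Rarres2, were matched there. Capitals mark the C/EBP motif TTGCNNAA on either strand, TATAAA on the given strand and CCAAT on either strand (ATTGG on the other).
Adipoq (chr16:23146286-23146535, plus strand): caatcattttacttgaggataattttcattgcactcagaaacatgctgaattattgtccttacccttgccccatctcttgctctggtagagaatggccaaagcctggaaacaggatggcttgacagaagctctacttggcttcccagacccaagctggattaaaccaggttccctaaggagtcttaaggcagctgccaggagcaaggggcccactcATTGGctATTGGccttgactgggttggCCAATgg
Lep (chr6:29059971-29060220, plus strand): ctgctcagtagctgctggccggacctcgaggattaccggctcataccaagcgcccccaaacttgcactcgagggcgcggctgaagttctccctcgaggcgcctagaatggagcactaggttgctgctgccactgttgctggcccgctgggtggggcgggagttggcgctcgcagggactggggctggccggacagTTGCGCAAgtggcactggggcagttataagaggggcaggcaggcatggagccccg
Retn (chr8:3655520-3655769, plus strand): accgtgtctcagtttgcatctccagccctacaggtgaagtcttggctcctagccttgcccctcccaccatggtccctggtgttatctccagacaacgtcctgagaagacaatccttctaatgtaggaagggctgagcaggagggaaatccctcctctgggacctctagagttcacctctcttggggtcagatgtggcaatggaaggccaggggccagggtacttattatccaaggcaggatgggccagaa
Cfd (chr10:79890603-79890852, plus strand): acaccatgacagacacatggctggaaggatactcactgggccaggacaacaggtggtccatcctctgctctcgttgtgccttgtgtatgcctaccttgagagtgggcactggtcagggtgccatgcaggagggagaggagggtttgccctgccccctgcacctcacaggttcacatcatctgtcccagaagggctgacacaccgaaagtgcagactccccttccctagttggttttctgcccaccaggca
Adipoq had 3 CCAAT matches within the last 34 bases, a motif that 33.85% of all 32851 RefSeq promoters of this length held. Lep had the palindrome TTGCGCAA from base -55 to -48, and the C/EBP motif occurred in 9.56% of all promoters. Neither Retn nor Cfd had a match to any of the 3 motifs, and TATAAA was found in 7.59% of all promoters. The direct repeat of AGGTCA with 1 base between its copies, to which PPARγ and its partner bind, was searched on both strands and was in none of the promoters of the 6 matched genes and in 0.03% of all promoters. These are matches of letters and not measured binding.

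Adipoq rose, and no other of the 7 genes passed the test. Nampt was higher without overlap between the groups after TMM scaling but missed the adjusted threshold. Lep, Retn, Cfd, Rbp4 and Rarres2 overlapped between the groups. By edgeR's quasi-likelihood test with Benjamini-Hochberg adjustment over all genes, 1 of 7 (14.3%) was higher and 0 of 7 lower, against 14.1% of all tested genes higher and 6.51% lower. At an unadjusted p under 0.05, 2 were higher and 0 lower, against 20.9% and 18.8% of all genes. DESeq2 called 2 higher and 0 lower (18.3% and 17% of all genes), and limma-voom called 1 higher and 0 lower (14.4% and 6.94%). The study used DESeq2 with an unadjusted p under 0.05 and a log2 difference over 1. With these thresholds on the edgeR fit, 2 of 7 were higher, against 14.3% of all genes higher and 14.5% lower. Groups did not overlap for 2 of 7 (28.6%), both higher, against 24.5% of all genes higher and 24% lower. These shares are near those of all genes, so the counts say nothing particular about these hormones. With 3 mice a group, the edgeR p-values set each difference against a spread between mice that is estimated partly from the other tested genes. An exact permutation test of 1 gene cannot go below 0.1.

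**Figure D1:**
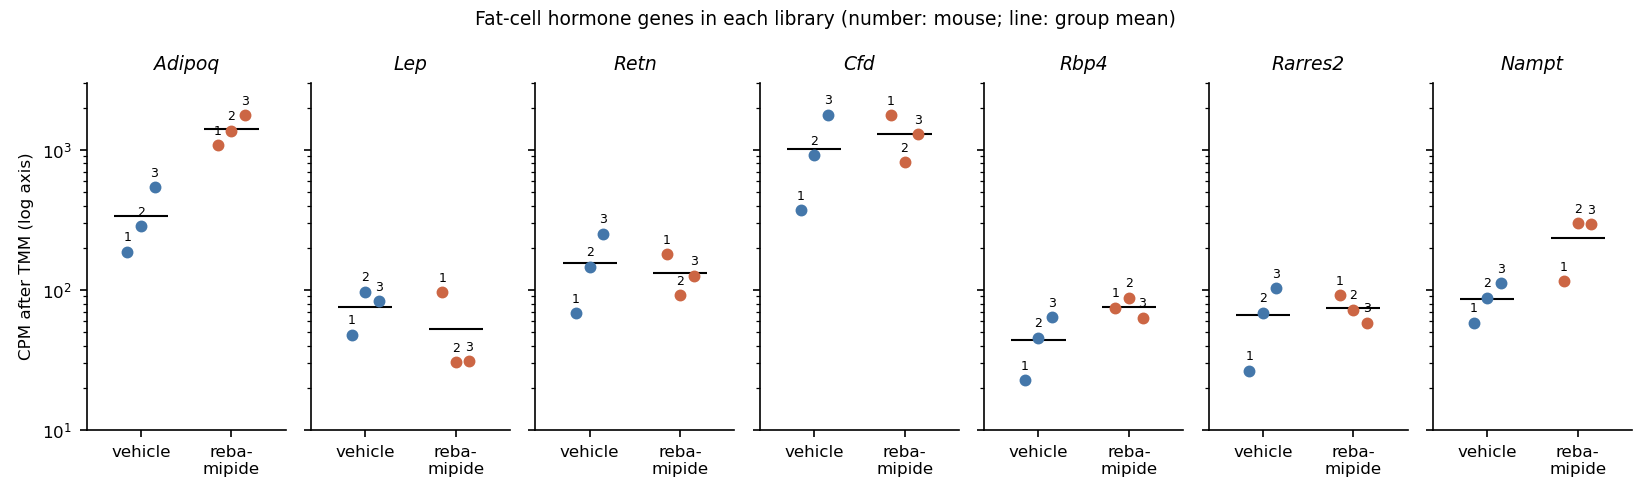
CPM after TMM scaling (log axis) of the 7 hormone genes in each of the 6 libraries, with the mouse number beside each point and a line at the group mean. The Adipoq points of the rebamipide group, 1076 to 1773 CPM, lie above all vehicle points, whereas those of Lep, Retn, Cfd, Rbp4 and Rarres2 overlap.

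Adipoq was at 187, 286 and 543 CPM in vehicle mice 1 to 3 and at 1076, 1368 and 1773 CPM in rebamipide mice 1 to 3. Every rebamipide mouse was above every vehicle mouse, and the gap between the groups was wider than the range of the vehicle values. The means were 339 ± 184 and 1406 ± 350 CPM (SD, n = 3 each), a ratio of 4.15. The fitted log2 difference was 2.05 (SE 0.47, 95% interval 0.92 to 3.19, edgeR adjusted p = 0.0308, exact permutation p = 0.1), and with total counts alone it was smaller, 1.43 (edgeR adjusted p = 0.0471). The edgeR call was lost when vehicle mouse 1 or 2 (adjusted p = 0.0633 and 0.137) or rebamipide mouse 2 or 3 (0.11 and 0.0713) was left out. With each library left out in turn, the difference stayed between 1.72 and 2.57. The summed level of 10 brown fat genes moved with Adipoq, at 221 to 407 CPM in the vehicle mice and 5053 to 12980 CPM in the rebamipide mice. Most of the vehicle sum came from Elovl3 alone, at 176, 129 and 238 CPM, whereas Ucp1 had 0 counts there. The part of the brown fat genes in the rise of Adipoq was not tested. In bulk tissue, more fat cells and more RNA per fat cell cannot be told apart.

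Lep, the hormone most closely tied to white fat, was at 47.9, 97.1 and 82.9 CPM in the vehicle mice and at 96.7, 30.5 and 31.1 CPM in the rebamipide mice. The first rebamipide mouse matched the highest vehicle mouse, and the other rebamipide mice lay below every vehicle mouse. The log2 difference was -0.53 (SE 0.54, 95% interval -1.82 to 0.77, edgeR adjusted p = 0.486), and -1.05 under total counts alone (adjusted p = 0.203). With TMM but without that first rebamipide mouse it was -1.30 with an adjusted p of 0.0459.

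Retn, which encodes resistin, was at 68, 147 and 253 CPM in the vehicle mice and at 180, 91.8 and 126 CPM in the rebamipide mice. The rebamipide values lay inside the range of the vehicle values. The log2 difference was -0.23 (SE 0.51, 95% interval -1.46 to 0.99, edgeR adjusted p = 0.752). It was -0.79 under total counts alone (edgeR adjusted p = 0.259) and 0.32 without the third vehicle mouse.

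Cfd, the adipsin gene, was at 372, 913 and 1781 CPM in the vehicle mice and at 1775, 818 and 1287 CPM in the rebamipide mice. The vehicle range covered the whole rebamipide range. The log2 difference was 0.34 (SE 0.61, 95% interval -1.13 to 1.81, edgeR adjusted p = 0.697), with the sign turning to -0.22 under total counts alone. With values this far apart within each group, neither a moderate rise nor a moderate fall was detectable.

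Rbp4, the retinol carrier, was at 22.8, 45.7 and 63.6 CPM in the vehicle mice and at 74.4, 87.9 and 63.2 CPM in the rebamipide mice. The third mouse of each group had nearly the same value, and the remaining rebamipide mice lay above all vehicle mice. The log2 difference was 0.77 (SE 0.38, 95% interval -0.15 to 1.70, edgeR adjusted p = 0.181), and 0.17 under total counts alone. Rarres2, the chemerin gene, was at 26.6, 68.9 and 103 CPM in the vehicle mice and at 91.9, 72.4 and 58.4 CPM in the rebamipide mice. As for Retn and Cfd, its rebamipide values fell within the vehicle range. Its log2 difference was 0.17 (SE 0.48, 95% interval -1.01 to 1.34, edgeR adjusted p = 0.818), and -0.41 under total counts alone.

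Nampt, the NAD salvage enzyme, was at 58.3, 87.9 and 112 CPM in the vehicle mice and at 115, 299 and 295 CPM in the rebamipide mice. The first rebamipide mouse was just above the highest vehicle mouse, and the other rebamipide mice were far above it. The means were 85.9 ± 26.8 and 236 ± 105 CPM (SD, n = 3 each), a ratio of 2.75. The log2 difference was 1.46 (SE 0.44, 95% interval 0.39 to 2.53, edgeR adjusted p = 0.0628). DESeq2 called it higher (adjusted p = 0.0152), as did edgeR without the first rebamipide mouse (0.0175). With total counts alone the log2 difference was 0.80 (edgeR adjusted p = 0.128), and as FPKM, which are relative to the library total, the first rebamipide mouse at 21.1 lay below vehicle mice 2 and 3 at 21.4 and 26.7.

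**Figure D2:**
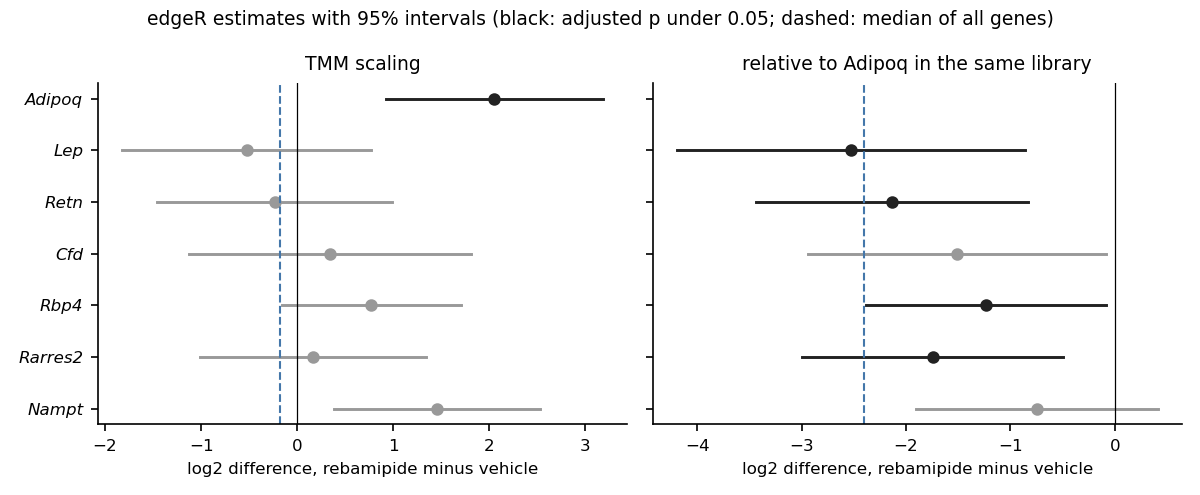
Fitted log2 difference, rebamipide minus vehicle, of each hormone gene after TMM scaling and relative to Adipoq, with 95% intervals. After TMM scaling only the intervals of Adipoq (0.92 to 3.19) and Nampt (0.39 to 2.53) lie above 0, and relative to Adipoq every other member but Nampt has an interval below 0.

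The contrast with Adipoq was measured directly by counting reads of each gene per 100 Adipoq reads within the same library, which removes the total depth. There were 25.6, 34 and 15.3 Lep reads per 100 Adipoq reads in the vehicle mice and 8.98, 2.23 and 1.75 in the rebamipide mice. For Retn the ratios were 36.3, 51.3 and 46.5 in the vehicle mice and 16.7, 6.71 and 7.10 in the rebamipide mice. Both hormones of white fat were lower against Adipoq in every rebamipide mouse than in any vehicle mouse, and the first rebamipide mouse lay nearest to the vehicle group. Cfd gave 199, 320 and 328 reads per 100 Adipoq reads in the vehicle mice and 165, 59.8 and 72.6 in the rebamipide mice. Cfd reads thus outnumbered Adipoq reads in all vehicle libraries and in the first rebamipide library, and fell short of them in the other rebamipide libraries. Rbp4 gave 11.7 to 16 against 3.57 to 6.92 and Rarres2 14.2 to 24.1 against 3.29 to 8.54, again without overlap. Nampt gave 31.1, 30.8 and 20.6 in the vehicle mice and 10.7, 21.9 and 16.6 in the rebamipide mice. Nampt was thus the member whose ratio to Adipoq overlapped between the groups.

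**Figure D3:**
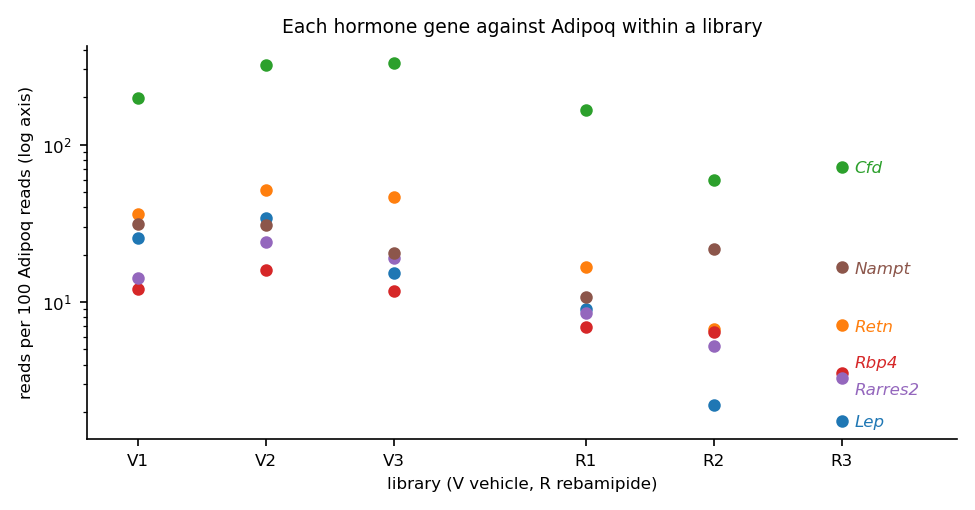
Reads of 6 hormone genes per 100 Adipoq reads (log axis) in each vehicle (V) and rebamipide (R) library. Lep spans 15.3 to 34 under vehicle and 1.75 to 8.98 under rebamipide, and Nampt is the gene whose groups overlap.

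When the Adipoq count served as the scale of each library, edgeR gave log2 differences of -2.53 for Lep (SE 0.74, adjusted p = 0.0139), -2.14 for Retn (SE 0.58, adjusted p = 0.0113) and -1.74 for Rarres2 (SE 0.56, adjusted p = 0.0185). Rbp4 was lower by a smaller amount, -1.24 (SE 0.51, edgeR adjusted p = 0.0478). Cfd at -1.51 (SE 0.64, 95% interval -2.93 to -0.08, edgeR adjusted p = 0.0505) and Nampt at -0.75 (SE 0.52, 95% interval -1.90 to 0.41, adjusted p = 0.199) did not pass. The Rbp4 call was lost with DESeq2 (adjusted p = 0.0567), and without rebamipide mouse 2 all 4 calls were lost (edgeR adjusted p = 0.063 to 0.138). With all libraries, edgeR put 4 of 6 (66.7%) lower relative to Adipoq, against 78.1% of all genes lower and 1.21% higher, and 5 of 6 (83.3%) without overlap, against 82.6% of all genes. The median difference of all genes on this scale was -2.40, so a lower ratio to Adipoq was common among all genes and was not particular to these hormones. Lep was the only member with a difference below that median.

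Adipoq was also set against the rest of the fat-cell genes. The list of mature fat-cell genes held 11 genes of lipid storage, fuel uptake and their control, none of them a hormone. By edgeR 10 of 11 rose and 0 fell (median log2 difference 2.61), leaving out Lpl (adjusted p = 0.0598), against 14.1% of all genes higher and 6.51% lower. DESeq2 called 11 higher and limma-voom 10 (18.3% and 14.4% of all genes), and 0 were lower by either or at an unadjusted p under 0.05. Among them, Plin1, the coat protein of lipid droplets, went from 207 ± 122 to 1265 ± 338 CPM (SD, n = 3 each, log2 difference 2.61, SE 0.52, edgeR adjusted p = 0.0226). There were 195, 152 and 161 Adipoq reads per 100 Plin1 reads in the vehicle mice and 114, 112 and 110 in the rebamipide mice. Adipoq thus stood lower against Plin1 in all rebamipide mice, while its fitted difference relative to Plin1 was -0.60 with a 95% interval of -1.99 to 0.79. That interval draws partly on the spread of other genes. The SD of the log2 ratio itself was 0.186 in the vehicle mice and 0.026 in the rebamipide mice. Relative to the geometric mean of the 11 genes it was -0.58 (95% interval -1.75 to 0.60, edgeR adjusted p = 0.303), whereas Lep was at -2.95 (adjusted p = 0.0098), Retn at -2.63 (0.00658), Rarres2 at -2.25 (0.00802), Cfd at -2.00 (0.0241), Rbp4 at -1.78 (0.0116) and Nampt at -1.35 (0.026). By the edgeR call, 6 of 7 (85.7%), all but Adipoq, were lower on this scale, against 87% of all genes lower and 0.652% higher. Adipoq itself stood at 136.5 to 171.4 reads per 100 of that mean in the vehicle mice and at 92.3 to 121.5 in the rebamipide mice, so all 7 were lower without overlap, as were 91.7% of all genes.

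Retn, Cfd and Rarres2 kept their ratios to each other more closely than any kept its ratio to Adipoq. The SD of the log2 count ratio over the 6 libraries was 0.36 for Cfd with Rarres2, 0.36 for Retn with Rarres2, 0.37 for Cfd with Retn and 0.38 for Rbp4 with Rarres2. Against Adipoq it was 0.58 for Nampt, 0.79 for Rbp4, 1.05 for Cfd, 1.11 for Rarres2, 1.33 for Retn and 1.80 for Lep. Rarres2 gave 7.14, 7.55 and 5.79 reads per 100 Cfd reads in the vehicle mice and 5.18, 8.85 and 4.54 in the rebamipide mice. Adipoq gave 50.3, 31.3 and 30.5 reads per 100 Cfd reads in the vehicle mice and 60.6, 167 and 138 in the rebamipide mice. The first ratio overlapped between the groups and the second did not. Retn per 100 Cfd reads was 14.2 to 18.3 in the vehicle mice and 9.79 to 11.2 in the rebamipide mice, a small difference with no overlap. Lep was tied to none of the others as closely, and its nearest member was Retn (SD 0.62).

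**Figure D4:**
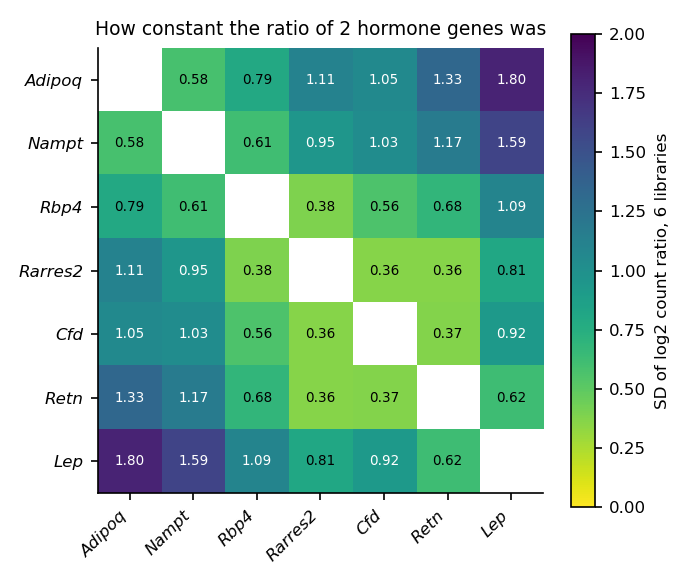
SD of the log2 ratio of read counts between each pair of the 7 genes over 6 libraries, where a low value means a nearly constant ratio. The pairs among Cfd, Retn and Rarres2 are at 0.36 to 0.37, and Adipoq with Lep is the least constant pair at 1.80.

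The same measure over 13422 genes with a mean of at least 50 counts showed which genes ran most closely with each hormone. Adipoq was nearest to Sh2d3c (SD 0.067), Flt1 (0.099) and Epas1 (0.11), and Nampt ranked 924 from it, Rbp4 1740 and Lep 9280. Flt1 encodes a VEGF receptor and Epas1 the hypoxia factor HIF-2α, and both are prominent in endothelial cells. Lep was nearest to Pld4 (0.046), Prune2 (0.065) and Ly86 (0.14), of which Ly86 is known from immune cells. Cfd was nearest to Mfng (0.22), Dram1 (0.24) and C3 (0.26), and C3 is the complement protein at the centre of the pathway that factor D serves. Rarres2 and Retn were at ranks 34 and 40 from Cfd. Retn was nearest to Htra3, Podn and Chst1 (SD 0.11 to 0.15), Rarres2 to Unc5a and Vamp5 (0.11 to 0.14), Rbp4 to Hfe, Gab2 and Dtx4 (0.095 to 0.12) and Nampt to Arl4a, Dram2 and Nfia (0.11 to 0.13). These SDs are over 6 points in 2 groups and are descriptions without a test.

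Levels of different genes were compared per length, as FPKM. In the vehicle group Cfd was the most abundant of the 7 at 1358 ± 918 FPKM (SD, n = 3), followed by Adipoq at 301 ± 157, Retn at 121 ± 69.5 and Rbp4 at 40.3 ± 17.9. Rarres2 (30.6 ± 17.1), Lep (27.9 ± 8.89) and Nampt (21 ± 6.01 FPKM) came last and did not differ beyond their spread, while the first 4 kept their order in all 3 vehicle mice. In the rebamipide group Cfd was at 1168 ± 571 and Adipoq at 811 ± 138 FPKM, and in the second rebamipide mouse Adipoq was the most abundant. Retn followed at 69.8 ± 32.3, Rbp4 at 45.3 ± 8.53, Nampt at 36.4 ± 13.3, Rarres2 at 23 ± 8.1 and Lep at 13.5 ± 11.5 FPKM, and neighbours in this order overlapped except Adipoq and Retn. Adipoq made up 21.3%, 14.8% and 15% of the summed FPKM of the 7 genes in the vehicle mice and 26.3%, 47.2% and 44.3% in the rebamipide mice. Cfd made up 63.6%, 70.9% and 73.8% and then 65%, 42.3% and 48.2%. In the first rebamipide mouse the Cfd share lay within the vehicle range and the Adipoq share above it, and in the others Adipoq and Cfd were nearly level. Retn took 6.11% to 6.78% in the vehicle mice and 2.75% to 3.85% in the rebamipide mice, without overlap.

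**Figure D5:**
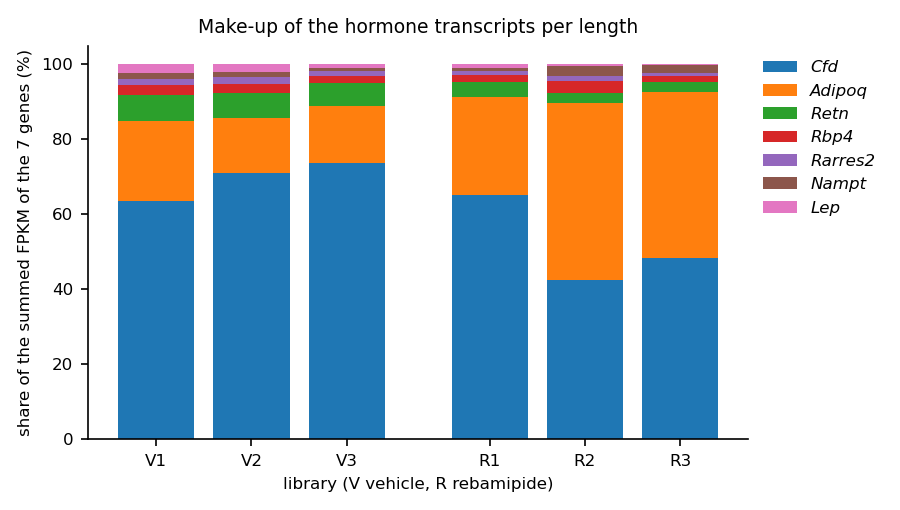
Share of each gene in the summed FPKM of the 7 hormone genes (percent) in each vehicle (V) and rebamipide (R) library. Adipoq takes 14.8% to 21.3% in the vehicle libraries, 26.3% in R1, 47.2% in R2 and 44.3% in R3.

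Among receptors of these hormones, 2 of 8 tested rose and 0 fell by edgeR, Adipor1 and Adipor2, against 14.1% of all genes higher and 6.51% lower. The median log2 difference of the list was -0.11, against -0.17 over all genes, and at an unadjusted p under 0.05, 2 were higher and 2 lower. The counts of the lists that follow are to be read against these shares of all genes, and none was tested against them. Adipor2, the adiponectin receptor typical of liver, was at 184, 233 and 308 CPM in the vehicle mice and at 960, 1412 and 1613 CPM in the rebamipide mice (log2 difference 2.46, SE 0.34, edgeR adjusted p = 0.0104). Adipor1, the receptor typical of muscle, was at 146, 185 and 189 CPM and then at 281, 306 and 328 CPM (log2 difference 0.82, SE 0.20, edgeR adjusted p = 0.0393). Neither gene overlapped between the groups, and the larger fitted difference was that of Adipor2. Cdh13, which encodes T-cadherin, also a binding partner of adiponectin at the cell surface, overlapped between the groups at 75.3 ± 29.7 and 86 ± 20 CPM (SD, n = 3 each, log2 difference 0.19, SE 0.36, edgeR adjusted p = 0.711). The leptin receptor gene Lepr, singled out with its values known, stood at 27.6, 22.7 and 19.8 CPM in the vehicle mice and at 7.24, 1.83 and 0.23 CPM in the rebamipide mice. It was lower without overlap but missed the threshold (log2 difference -2.91, SE 1.06, edgeR adjusted p = 0.0953), as did Stra6, the receptor for retinol-binding protein (-4.31, SE 1.46, adjusted p = 0.0809). DESeq2 called 2 receptors higher and 2 lower. Of the genes that assemble adiponectin in the endoplasmic reticulum, Gstk1 rose (log2 difference 1.51, SE 0.21, edgeR adjusted p = 0.0104), the oxidase gene Ero1a fell (-1.40, SE 0.33, adjusted p = 0.0344) and Erp44, which retains unfinished adiponectin, was at 0.20 (adjusted p = 0.428).

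The other relatives and partners of the hormones went in different directions. Of the C1q/TNF-related genes, the family of adiponectin, 2 of 8 tested rose and 0 fell by edgeR, and DESeq2 and an unadjusted p under 0.05 each also put C1qtnf7 lower (log2 difference -1.66, SE 0.60, edgeR adjusted p = 0.0932). The genes that rose were C1qtnf9, from 18.8 ± 10.2 to 66.6 ± 11.5 CPM, and C1qtnf12, from 33.8 ± 3.55 to 72.8 ± 9.42 CPM (SD, n = 3 each). C1qtnf9 had a log2 difference of 1.83 (SE 0.45, edgeR adjusted p = 0.0375) and C1qtnf12 one of 1.11 (SE 0.19, adjusted p = 0.0146). Of the resistin-like genes, 0 of 2 tested passed with edgeR, DESeq2 or limma-voom, also at an unadjusted p under 0.05, and Retnla was at 180 ± 129 and 97 ± 100 CPM (SD, n = 3 each). In the leptin pathway Jak2, the kinase bound to the leptin receptor, fell from 33 ± 6.26 to 12.7 ± 2.98 CPM (log2 difference -1.37, SE 0.27, edgeR adjusted p = 0.0211), and it was the only one of 4 genes to pass. Stat3, its target, was at 140 ± 48.7 and 139 ± 30.6 CPM (SD, n = 3 each). At an unadjusted p under 0.05, 0 of the 4 were higher and 2 lower, Jak2 and Ptpn1. Ptpn1 was lower without overlap (log2 difference -0.68, SE 0.25, edgeR adjusted p = 0.0985). DESeq2 and limma-voom each called 1 of the 4 lower and 0 higher. Among genes of retinol handling, Lrat, which esterifies retinol, fell from 5.84 ± 3.06 to 0.38 ± 0.15 CPM (SD, n = 3 each, log2 difference -3.92, SE 0.59, edgeR adjusted p = 0.0118). Ttr, the blood partner of Rbp4, was under the filter.

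Of the alternative complement pathway around adipsin, 0 of 8 tested genes passed with edgeR, while 1 was higher and 2 were lower at an unadjusted p under 0.05. DESeq2 called 0 higher and 2 lower, and limma-voom called 0. C3 averaged 929 ± 625 CPM under vehicle and 1321 ± 225 CPM under rebamipide (SD, n = 3 each, log2 difference 0.51, SE 0.57, edgeR adjusted p = 0.528). Around Nampt, 6 of 13 genes of NAD salvage and use rose and 0 fell by edgeR, with a median log2 difference of 1.10, against 14.1% of all genes higher, 6.51% lower and a median of -0.17. At an unadjusted p under 0.05, 9 were higher and 0 lower (20.9% and 18.8% of all genes), DESeq2 called 8 higher and Nmnat2 lower (18.3% and 17%), and limma-voom called 6 higher and 0 lower (14.4% and 6.94%). Sirt3, the NAD-dependent deacetylase of mitochondria, rose from 6.17 ± 1.08 to 56.6 ± 21.5 CPM (log2 difference 3.20, SE 0.37, edgeR adjusted p = 0.00939), and Nadk, which makes NADP, rose from 144 ± 21.2 to 407 ± 93.8 CPM (1.49, SE 0.26, adjusted p = 0.0164). Nmnat1, the enzyme that follows Nampt, rose from 7.79 ± 2.25 to 22.7 ± 1.26 CPM (1.55, SE 0.28, edgeR adjusted p = 0.0178). Of 12 other secreted factors of white fat, 2 rose and 0 fell by edgeR, with a median of -0.76, while DESeq2 and limma-voom each called the same 2 higher and Metrnl, a secreted meteorin relative, lower. Metrnl went from 43.5 ± 9.93 to 13.2 ± 9.83 CPM (SD, n = 3 each, log2 difference -1.72, SE 0.58, edgeR unadjusted p = 0.024, adjusted p = 0.0802). Angptl4, an inhibitor of lipoprotein lipase, went from 31.3 ± 14.3 to 332 ± 73.3 CPM (log2 difference 3.41, SE 0.46, edgeR adjusted p = 0.0101), and the peptide gene Apln rose by 1.16 (SE 0.27, adjusted p = 0.0344).

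Markers of other cells moved with the groups and within them. The summed CPM of 10 brown fat genes was 221 to 407 in the vehicle mice and 5053, 12980 and 10720 in rebamipide mice 1 to 3, and 6 of 10 rose with 0 falling by edgeR. The other members were not alike: Elovl3, a fatty acid elongase, was lower without overlap, at 181 ± 55.1 and 66.3 ± 28.5 CPM (SD, n = 3 each, log2 difference -1.45, SE 0.42, edgeR unadjusted p = 0.0133, adjusted p = 0.0575). DESeq2 called 7 of the 10 higher and Elovl3 lower, limma-voom called 5 higher and 0 lower, and Zic1, a transcription factor gene of brown fat depots, was at 12.1 ± 6.29 and 12.8 ± 2.75 CPM (SD, n = 3 each). Ucp1, the defining gene of brown fat cells, had 0 counts in every vehicle library and stood at 2669, 8591 and 5746 CPM in the rebamipide libraries. Of 4 tested markers of white depots 0 passed with edgeR, DESeq2 or limma-voom, also at an unadjusted p under 0.05, and the sum of all 6 genes of that list was 33.2 to 62.8 CPM in the vehicle mice and 48.4, 22.1 and 14.5 CPM in the rebamipide mice. The first rebamipide mouse thus had the lowest brown fat sum and the highest white depot sum of its group, and also the highest Lep, Retn, Cfd and Rarres2. It likewise had the highest sums of its group for 7 fibroblast genes (15800 CPM against 3711 and 1972), 6 macrophage genes (851 against 367 and 230) and 6 skeletal muscle genes (30400 against 6272 and 251). The vehicle sums were 12310 to 18770, 427 to 979 and 4818 to 23740 CPM for these lists. The keratinocyte sum was 2108 to 6739 CPM in the vehicle mice and 1884, 1150 and 2.52 CPM in the rebamipide mice, the endothelial sum 203 to 471 and 969 to 1409 CPM, and the red cell sum 42.4 to 200 and 346 to 809 CPM. The keratinocyte, fibroblast, macrophage and muscle lists held 0 called genes by edgeR, DESeq2 called 2 fibroblast and 2 macrophage genes lower, and limma-voom called 0 in these 4 lists. At an unadjusted p under 0.05 the edgeR counts were 2 fibroblast and 2 macrophage genes, all lower. In the endothelial list 3 of 5 genes (Cdh5, Kdr and Emcn) and in the red cell list 3 of 5 (Hba-a1, Hbb-bs and Alas2) rose by edgeR, and DESeq2 called all 5 of each list higher. Of 5 sebaceous gland genes edgeR called Mc5r lower and DESeq2 called 4 lower, and of 3 tested neutrophil genes edgeR called S100a8 lower and DESeq2 called 2 lower. In the dermal papilla list edgeR called 0 of 6 genes, with 1 lower at an unadjusted p under 0.05 and by DESeq2 and 0 by limma-voom. The part of these differences between the skin samples in the levels of the hormones was not tested.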

How the data were processed

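Poly-A RNA-seq of dorsal skin from 6 mice was analysed from the deposited table of genes. The authors deposited raw read counts per gene and FPKM per library, which equal the count divided by gene length and summed counts. The submitters' processing notes name fastp 0.22.0, HISAT2 2.1.0, HTSeq 0.9.1 and GRCm39. All 12 columns of values were matched to libraries by name, and 0 were unmapped.

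Counts were fitted in R 4.3.3 with edgeR 4.0.16 (TMM, filterByExpr, quasi-likelihood test, Benjamini-Hochberg adjustment over all tested genes, threshold 0.05). In a second fit the Adipoq count of each library replaced its library size. CPM are TMM-scaled, and permutation tests were exact and two-sided. The alternatives were DESeq2 1.42.0, limma-voom (limma 3.58.1), other scalings and filters, the thresholds of the study, a replicate block, limma on log2(FPKM + 1), other reference genes and each library left out in turn.

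The genes and lists were chosen with earlier results of these data known. All 7 hormone genes are named, with up to 3 genes of the smallest p and up to 2 of the highest CPM in each list of partners, not all of which are described, and the 3 genes with the most constant ratio to each hormone. Some genes that this rule names are not reported here. Marker genes of cell types, and Lepr, were named after their values were seen. A chi-square comparison of counts within each group found no library deposited more than once. The likeness measure used counts with a pseudocount of 0.5.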

Additional observations from a re-analysis of the deposited data

How the results depend on the processing

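The number of genes lower over the whole table was 968 and changed with DESeq2 (2534), total counts alone (3752, with 1258 higher), at least 10 counts in every library (1512) and limma on log2(FPKM + 1) (4570). With the thresholds of the study applied to the edgeR fit it was 2161. Nampt passed with DESeq2 (1.46), at least 10 counts (1.38) and the replicate block (1.38), but not under total counts alone (0.80, adjusted p = 0.128), on the FPKM scale (0.73, 0.142) or with limma-voom (1.39, 0.0696). Under total counts alone and on the FPKM scale Cfd turned to -0.22 and -0.079, and Rarres2 to -0.41 and -0.27. Relative to Adipoq, Rbp4 lost its call with DESeq2 and with at least 10 counts (-1.24 each), and Cfd gained one with DESeq2 and with at least 10 counts (-1.51 each) and with the replicate block (-1.65). With Plin1 as the scale Cfd was called at -2.07, and with the fat-cell list Cfd was called at -2.00 and Nampt at -1.35. The cause of these changes was not tested.

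With each library left out in turn, 0 to 2810 genes were higher and 0 to 1971 lower. Without vehicle mouse 2 edgeR called 0 genes in either direction, with 4116 at an unadjusted p under 0.05, and without rebamipide mouse 2 it called 1, with 4062. Without rebamipide mouse 3 it called 1012 higher and 382 lower, without vehicle mouse 1 it called 379 lower, and without rebamipide mouse 1 it called 1971 lower. The log2 differences ranged from 1.72 to 2.57 for Adipoq, -1.30 to -0.24 for Lep, -0.61 to 0.32 for Retn, -0.081 to 1.03 for Cfd, 0.43 to 1.14 for Rbp4, -0.24 to 0.65 for Rarres2 and 1.20 to 1.79 for Nampt. Cfd turned negative without the first vehicle library, and Rarres2 did so without the first vehicle (-0.24) or the first rebamipide (-0.013) library, and Retn turned positive without the third vehicle library. Relative to Adipoq the ranges were -3.65 to -2.15 for Lep, -2.69 to -1.91 for Retn, -2.09 to -1.25 for Cfd, -1.41 to -0.99 for Rbp4, -2.15 to -1.47 for Rarres2 and -1.01 to -0.51 for Nampt. Without rebamipide mouse 2 the ratio calls of Lep (-2.22, edgeR adjusted p = 0.063), Retn (-1.91, 0.0688), Rarres2 (-1.69, 0.088) and Rbp4 (-1.34, 0.138) were lost. Rarres2 also lost its call without vehicle mouse 2 (-1.54, 0.0842) or rebamipide mouse 3 (-1.47, 0.0989), and Rbp4 without vehicle mouse 2 (-1.08, 0.186), rebamipide mouse 1 (-1.41, 0.0831) or rebamipide mouse 3 (-0.99, 0.251). Cfd gained a call without vehicle mouse 1 (-1.71, 0.0423) or rebamipide mouse 1 (-2.09, 0.027).

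Same-numbered mice did not deviate together (correlations of -0.07, -0.03 and -0.04 over 14875 genes, none the best of its library). With deviations from means of 3 mice, this cannot exclude a pairing by number. The replicate block left 1432 genes higher and 855 lower. With 3 mice a group, wide intervals limit what can be said of Lep, Retn, Cfd, Rbp4 and Rarres2, whose counts of 783 to 83287 per library leave counting error small beside the spread between mice.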
